A study of Homo sapiens with 6 samples.

Results

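Ribosome biogenesis and nucleolar factors were examined in CAL-62, an established human cell line from an anaplastic thyroid carcinoma, in 3 samples overexpressing the forkhead transcription factor FOXK2 (labelled oeFOXK2) and 3 samples carrying a vector. All 6 share the cell line and the growth medium, and the labels name no drug. The promoter that drove FOXK2, the length of expression and whether the lines were clones are not stated in the labels. The series calls the 3 samples of a group biological replicates without saying whether they were separate cultures. Each p-value rests on how far the samples of a group spread, for that gene and for genes of similar level. That spread may be technical. The genes were chosen by name: symbols beginning NOP, NOL, NOC or UTP and a digit, or RRP, together with a set of symbols given singly, among them FBL, NCL, NPM1 and DKC1. DDX helicases were left out by that rule. Of 11354 genes summed from the deposited transcript table, 62 matched, all protein-coding and all with a mean of at least 1 FPKM (a level scaled to transcript length and to library size), the minimum for testing. BOP1 and NOL4, which the rule also takes, have no listed transcript and were not analysed here.

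Ribosomes are made in the nucleolus, where RNA polymerase I transcribes a long precursor RNA. Small nucleolar ribonucleoproteins (snoRNPs) of the box C/D and box H/ACA classes modify that precursor by methylation and pseudouridylation, and the small subunit processome and a separate set of large subunit factors fold, cleave and release the precursors of the 40S and 60S subunits. Fast-growing cells, tumour cells among them, are known for high production of ribosomes. The RNA measured here is messenger RNA of the proteins that do this work; precursor rRNA and nucleolar protein were not measured.

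The biogenesis genes moved both ways. With FOXK2 overexpression 18 of 62 passed the test as higher (29%) and 5 as lower (8.06%), and 39 did not pass (limma, Benjamini-Hochberg adjusted over all 10302 genes tested, threshold 0.05). Over all genes tested, 36.3% passed, 17.6% as higher and 18.7% as lower, so the 37.1% of biogenesis genes called in either direction is close to the share of all genes. The median log2 fold change, FOXK2 minus vector on the log2(FPKM + 1) scale, was 0.10 over the 62 genes and 0.01 over all genes. All 3 FOXK2 libraries lay above all 3 vector libraries for 24 of the 62 (38.7%, against 25.7% of all genes) and below them for 8 (12.9%, against 26.4%). Changes were small: UTP20, at 1.13, was the only gene called higher by a log2 fold change of 1 or more, and NOL3 and NOP53, at -1.79 and -1.03, were the 2 called lower by as much. As a sum, the 62 genes held 1.21%, 1.14% and 1.16% of the summed FPKM in FOXK2 replicates 1, 2 and 3, against 1.06%, 1.03% and 0.983% in vector replicates 1, 2 and 3. The sums themselves were 4070, 4144 and 4017 FPKM, against 3915, 3862 and 3892 FPKM, in the same order. The shares differ by more than the sums because the total FPKM was smaller in every FOXK2 library. Abundant genes weigh most in such sums, and the roles differed. The sums of NCL with NPM1, of the 40S factors and of the box C/D proteins were higher in every FOXK2 library. Those of the box H/ACA proteins and of NOL3 with NOL4L were lower in every FOXK2 library, and that of the 60S factors overlapped. NCL with NPM1 had 909, 759 and 799 FPKM, against 753, 718 and 621 FPKM, and the box H/ACA proteins 306.3, 359 and 330.8 FPKM, against 359.7, 384.5 and 384.3 FPKM. In bulk RNA, fewer cells with a transcript and less of it per cell cannot be told apart.

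**Figure D1:**
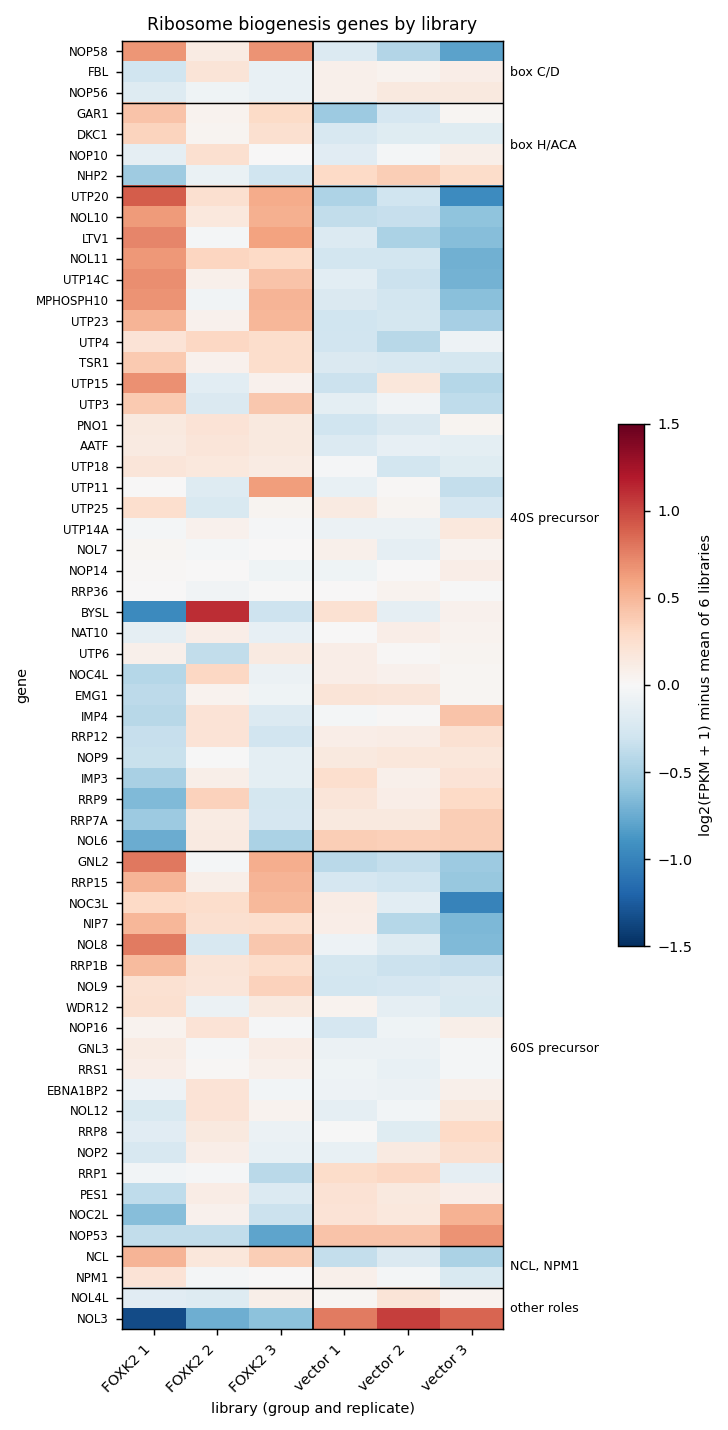
Level of each of the 62 genes (rows, grouped by role and ordered by log2 fold change) in each library (columns, FOXK2 left of the line, vector right), as log2(FPKM + 1) minus the gene's mean over the 6 libraries. The 18 genes called higher are red in FOXK2 replicates 1 and 3 and blue in the vector libraries (NIP7 in vector replicate 1 excepted), the 5 called lower the reverse, and FOXK2 replicate 2 is paler, or near 0, in many of these rows.

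FOXK2 mRNA itself was 30.8, 36.2 and 30.1 FPKM in FOXK2 replicates 1, 2 and 3, against 16.3, 12.5 and 18.8 FPKM in vector replicates 1, 2 and 3 (log2 fold change 1.00, SE 0.17, limma adjusted p = 0.00525), so the labels held for the overexpressed gene. The summed FPKM per library was 335151 to 363133 in FOXK2 libraries and 370457 to 395782 in vector libraries; the number of reads is unknown. Of the thyroid follicular markers, PAX8 was present at 82.6 to 114 FPKM in FOXK2 libraries and 91.2 to 155 FPKM in vector libraries, FOXE1 stayed under 1 FPKM in every library, and NKX2-1, TG and TSHR are not among the listed transcripts. The defining immune and endothelial markers PTPRC, CD3E, PECAM1, VWF and CDH5 are not listed either. The immune marker CD68 is listed, at 11.03 to 14.2 FPKM in FOXK2 libraries and 12.9 to 19.7 FPKM in vector libraries. The 2 listed of 4 fibroblast markers, COL1A1 and COL1A2, summed to 20.1 to 21.6 FPKM in FOXK2 libraries and 30.3 to 39.6 FPKM in vector libraries. The 5 listed of 6 epithelial markers, all but CDH1, summed to 2349 to 3533 FPKM and 3562 to 4174 FPKM in the same order. KRT7 (log2 fold change -0.73) and KRT19 (-1.31) were called lower, and KRT8 (0.00), KRT18 (0.12) and EPCAM (-0.15) were not called. After removal of each library's trend on GC content and transcript length, KRT19 stayed lower, KRT7 was not called, and KRT8 and KRT18 were called higher. The 3 mesenchymal markers summed to 732 to 786 FPKM in FOXK2 libraries and 744 to 793 FPKM in vector libraries. The part of these markers in the results was not tested. FOXK2 replicate 2 stood nearest to the vector libraries: of the 62 genes it was the FOXK2 library closest to the vector mean for 42, and of the 23 called genes for 18. GC content moved with the groups over all genes. Per 10 percentage points of GC content, the log2 level of a gene relative to its mean over the libraries shifted by -0.378, -0.013 and -0.231 in FOXK2 replicates 1, 2 and 3, against 0.158, 0.163 and 0.300 in vector replicates 1, 2 and 3.

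The core proteins of the box C/D snoRNP, which guides methylation of rRNA, did not move together. NOP58, one of its paired scaffold proteins, had 97.0, 66.6 and 98.3 FPKM in FOXK2 replicates 1, 2 and 3, against 52.7, 44.9 and 34.7 FPKM in the vector replicates. Each FOXK2 library lay above each vector library, and NOP58 was called (log2 fold change 0.97, SE 0.21, limma adjusted p = 0.0115). Its partner NOP56 had 77.3, 84.6 and 81.9 FPKM in FOXK2 cells, against 93.9, 98.3 and 98.1 FPKM in vector cells. These NOP56 values do not overlap either, in the other direction, but the difference was not called (-0.25, SE 0.10, adjusted p = 0.0924). Fibrillarin (FBL), the methyltransferase, had 72.9, 103 and 83.0 FPKM in FOXK2 cells, against 94.9, 93.4 and 96.5 FPKM in vector cells, with overlapping groups (-0.15, SE 0.14, adjusted p = 0.434). In FOXK2 cells the mean levels per length of FBL, NOP56 and NOP58 were 86.4, 81.3 and 87.3 FPKM, against 94.9, 96.8 and 44.1 FPKM in vector cells. The transcripts of NOP58 have a GC content of 41.3%, and those of NOP56 and FBL 55.3% and 57.9%. After each library's trend on GC content and transcript length had been removed, NOP58 was still called higher (0.64, adjusted p = 0.0139), NOP56 was level (0.01, adjusted p = 0.945) and FBL was called higher (0.41, adjusted p = 0.00938).

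The box H/ACA snoRNP, which guides pseudouridylation and also forms part of telomerase, was likewise mixed. Dyskerin (DKC1), the pseudouridine synthase, had 65.9, 53.8 and 61.9 FPKM in FOXK2 cells, against 44.0, 45.9 and 46.1 FPKM in vector cells. It was higher in all 3 FOXK2 libraries (log2 fold change 0.41, SE 0.12, limma adjusted p = 0.0343). NHP2, a small RNA-binding core subunit, had 115, 156 and 135 FPKM in FOXK2 cells, against 206, 216 and 203 FPKM in vector cells, and was lower in all 3 (-0.63, SE 0.13, adjusted p = 0.0109). GAR1 missed the threshold although its groups do not overlap, at 26.8, 20.4 and 24.2 FPKM in FOXK2 cells and 13.2, 16.3 and 19.9 FPKM in vector cells (0.52, SE 0.18, adjusted p = 0.0575). NOP10, the smallest subunit, overlapped between the groups, with means of 112 FPKM in FOXK2 cells and 106 FPKM in vector cells (0.07, adjusted p = 0.692). After that correction the calls changed for 3 of the 4: NHP2 was level (-0.04, adjusted p = 0.770), DKC1 missed the threshold (0.25, adjusted p = 0.0623), GAR1 passed it (0.53, adjusted p = 0.0432), and NOP10 stayed uncalled (0.29, adjusted p = 0.0625). The NHP2 sum also depended on 1 short transcript, ENST00000514354, listed at 39.2 and 47.8 FPKM in vector replicates 1 and 2 and at 0 in the other 4 libraries. With its most abundant transcript only, NHP2 was not called (-0.42, adjusted p = 0.0825).

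**Figure D2:**
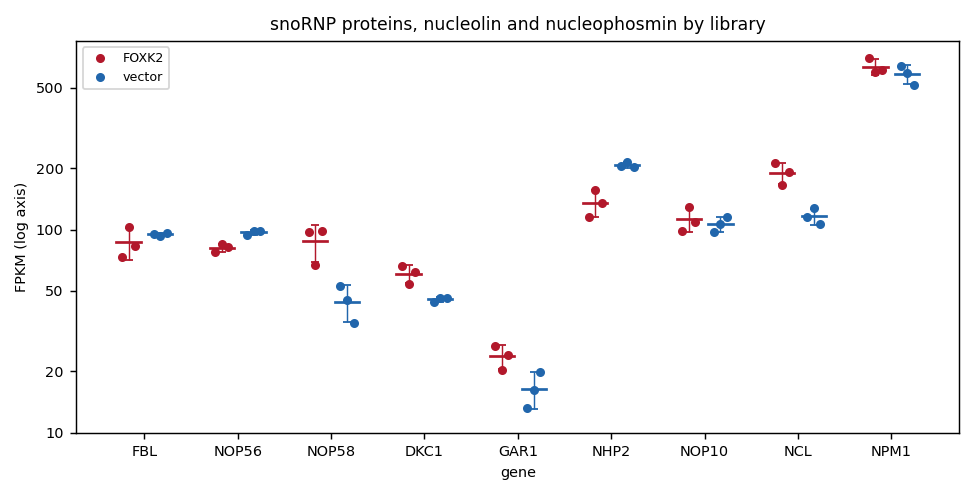
Levels in FPKM (log axis) of the box C/D proteins, the box H/ACA proteins, nucleolin (NCL) and nucleophosmin (NPM1), FOXK2 libraries left of vector libraries for each gene; points are libraries, horizontal lines group means and bars 1 SD (n = 3). The groups do not overlap for NOP58, DKC1, GAR1 and NCL, which are higher in FOXK2 libraries, or for NOP56 and NHP2, which are lower.

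Nucleolin and nucleophosmin, the abundant RNA-binding and chaperone proteins of the nucleolus, differed from each other. Nucleolin (NCL) had 212, 166 and 192 FPKM in FOXK2 replicates 1, 2 and 3, against 115, 127 and 106 FPKM in the vector replicates (log2 fold change 0.70, SE 0.13, limma adjusted p = 0.00735). It was higher in every FOXK2 library, was called in each of the 17 other fits tried, and kept a log2 fold change of 0.47 with the GC and length correction (adjusted p = 0.00766). Nucleophosmin (NPM1), the most abundant of the 62 genes, had 697, 593 and 607 FPKM in FOXK2 cells, against 638, 590 and 516 FPKM in vector cells. Its groups overlap and it was not called (0.12, SE 0.12, adjusted p = 0.443). Corrected for GC and length, its log2 fold change was -0.11 (adjusted p = 0.316). NPM1 has near-identical processed copies elsewhere in the genome, and how shared reads were divided is not known.

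Of 32 factors of the small subunit processome and of 40S precursors, 10 were called higher (31.2%, against 17.6% of all genes) and 1 lower (3.12%, against 18.7%), which is 34.4% in all, against 36.3% of all genes. Their median log2 fold change was 0.03, with a range from -0.72 to 1.13. The 5 of smallest adjusted p among those called higher were NOL10, UTP20, NOL11, UTP23 and LTV1. UTP20, a very large scaffold of the processome, had 18.8, 11.5 and 14.5 FPKM in FOXK2 cells, against 6.69, 7.57 and 4.52 FPKM in vector cells (log2 fold change 1.13, SE 0.23, limma adjusted p = 0.00983). NOL10 had 58.1, 41.5 and 54.0 FPKM in FOXK2 cells, against 28.4, 29.1 and 24.1 FPKM in vector cells (0.88, SE 0.16, adjusted p = 0.00663). Both were higher in every FOXK2 library, with FOXK2 replicate 2 the lowest of the 3. NOL11, which works with UTP4 in the subcomplex tied to transcription of rDNA, had 36.5, 28.9 and 28.4 FPKM in FOXK2 cells, against 18.8, 18.7 and 13.6 FPKM in vector cells (0.84, SE 0.17, adjusted p = 0.0102). UTP4 (cirhin) had 43.9, 47.5 and 45.7 FPKM, against 30.9, 28.2 and 36.1 FPKM (0.52, SE 0.13, adjusted p = 0.0200). UTP15, of the same subcomplex, overlapped between the groups, at 14.1, 7.42 and 8.82 FPKM in FOXK2 cells and 6.52, 9.55 and 5.97 FPKM in vector cells (0.39, adjusted p = 0.258).

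Factors that act late on the 40S precursor were also among those called higher. LTV1, an assembly factor released before the subunit is complete, had 65.7, 38.6 and 60.1 FPKM in FOXK2 cells, against 34.0, 28.0 and 24.9 FPKM in vector cells (log2 fold change 0.87, SE 0.22, limma adjusted p = 0.0196). TSR1, which resembles a GTPase and binds cytoplasmic 40S precursors, had 71.7, 57.0 and 65.7 FPKM, against 46.7, 46.1 and 45.2 FPKM (0.48, SE 0.12, adjusted p = 0.0216). Both sets of values are apart, with the vector libraries of TSR1 within 2 FPKM of each other. The RNA-binding factor PNO1 was apart too, at 58.2, 60.8 and 58.3 FPKM in FOXK2 cells and 42.5, 45.1 and 54.0 FPKM in vector cells, and missed the threshold (0.32, adjusted p = 0.0790). Bystin (BYSL) was the most scattered gene: 7.95, 36.4 and 12.98 FPKM in FOXK2 replicates 1, 2 and 3, against 19.3, 14.7 and 17.2 FPKM in the vector replicates (-0.10, SE 0.46, adjusted p = 0.872). FOXK2 replicate 2 alone was above the vector values of BYSL and the other 2 were below them.

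MPHOSPH10, IMP3 and IMP4 form 1 complex in the U3 snoRNP and did not move together. MPHOSPH10 had 30.7, 18.2 and 27.3 FPKM in FOXK2 cells, against 16.1, 15.5 and 11.9 FPKM in vector cells, and was called higher (log2 fold change 0.75, SE 0.21, limma adjusted p = 0.0307). IMP3 had 26.3, 39.6 and 33.6 FPKM, against 44.6, 39.2 and 43.1 FPKM (-0.36, adjusted p = 0.121), and IMP4 had 25.7, 40.2 and 30.1 FPKM, against 33.9, 35.1 and 47.2 FPKM (-0.28, adjusted p = 0.304). The groups of IMP3 and IMP4 overlap through FOXK2 replicate 2. Their transcripts have a GC content of 56.6% and 58.7%, against 41.2% for MPHOSPH10, and with the correction the 3 log2 fold changes were 0.37, 0.11 and 0.24, none of them called (adjusted p = 0.0710, 0.414 and 0.177). RRP9, another U3 protein, was likewise split by FOXK2 replicate 2, with 27.9, 56.9 and 37.0 FPKM in FOXK2 cells and 50.9, 48.0 and 55.1 FPKM in vector cells (-0.39, adjusted p = 0.226).

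NOL6, whose yeast counterpart is Utp22, was the 1 factor of the 40S group called lower. Its level was 9.73, 18.8 and 12.0 FPKM in FOXK2 cells, against 22.2, 22.1 and 22.3 FPKM in vector cells (log2 fold change -0.72, SE 0.22, limma adjusted p = 0.0368). RRP7A, which partners Utp22 in yeast, had 61.7, 98.7 and 75.6 FPKM, against 100.2, 99.98 and 117 FPKM, and the RNA-binding protein NOP9 had 10.1, 12.9 and 11.6 FPKM, against 14.4, 14.7 and 14.7 FPKM. Both were below in every FOXK2 library and neither was called (-0.44, adjusted p = 0.0865 for RRP7A and -0.32, adjusted p = 0.0995 for NOP9). AATF, which forms a complex with NOL10, had 255, 263 and 255 FPKM in FOXK2 cells, against 200.4, 212 and 209 FPKM in vector cells (0.31, SE 0.09, adjusted p = 0.0370). It is the called gene with the smallest change, and its transcripts, at 53.3%, have the highest GC content among the 18 called higher. UTP23 had 14.7, 10.6 and 14.6 FPKM in FOXK2 cells and 8.05, 8.24 and 6.84 FPKM in vector cells (0.71, adjusted p = 0.0177).

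UTP14C, a retrocopy of UTP14A, was called higher while its source gene was not. UTP14C had 7.02, 4.23 and 5.65 FPKM in FOXK2 cells, against 3.43, 2.95 and 2.04 FPKM in vector cells (log2 fold change 0.80, SE 0.22, limma adjusted p = 0.0263). UTP14A had 52.0, 55.4 and 52.3 FPKM, against 49.8, 49.5 and 59.0 FPKM (0.02, SE 0.12, adjusted p = 0.926). The value of UTP14C is uncertain, since it shares exon sequence with ALG11 on the same strand and is a near copy of UTP14A. The remaining 40S factors had overlapping groups or missed the threshold. Steadiest were RRP36, NOP14, NOL7 and UTP14A, whose log2 fold changes lay between -0.04 and 0.02. NAT10, the acetyltransferase of 18S rRNA, averaged 56.6 ± 5.29 FPKM in FOXK2 cells and 60.9 ± 1.99 FPKM in vector cells (SD, n = 3 each; -0.11, adjusted p = 0.482), and EMG1, an rRNA methyltransferase, 10.8 ± 1.80 and 13.1 ± 0.862 FPKM (-0.27, adjusted p = 0.207).

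Of 19 factors of the 60S precursor, 5 were called higher (26.3%, against 17.6% of all genes) and 2 lower (10.5%, against 18.7%). That is 36.8% in all, against 36.3% of all genes, with a median log2 fold change of 0.14. GNL2, a nucleolar GTPase, had 56.5, 31.5 and 47.4 FPKM in FOXK2 cells, against 24.1, 25.0 and 21.8 FPKM in vector cells (log2 fold change 0.87, SE 0.21, limma adjusted p = 0.0176). Its relative nucleostemin (GNL3) had 19.2, 17.3 and 19.0 FPKM, against 16.4, 16.4 and 17.2 FPKM, also higher in every FOXK2 library but by too little to be called (0.14, SE 0.12, adjusted p = 0.371). The paralogs RRP1B and RRP1 also differed, with fold changes of opposite sign. RRP1B had 30.1, 24.5 and 25.9 FPKM in FOXK2 cells, against 17.6, 16.9 and 16.6 FPKM in vector cells (0.62, SE 0.13, adjusted p = 0.0102), and RRP1 had 25.8, 26.2 and 19.8 FPKM, against 32.3, 33.0 and 24.1 FPKM (-0.30, adjusted p = 0.202). RRP1B is apart between the groups and RRP1 overlaps.

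The other 60S factors called higher were RRP15, NIP7 and NOL9. RRP15 had 8.86, 6.37 and 8.83 FPKM in FOXK2 cells, against 4.82, 4.62 and 3.64 FPKM in vector cells (log2 fold change 0.74, SE 0.18, limma adjusted p = 0.0175). NIP7 had 34.2, 28.4 and 28.8 FPKM, against 25.8, 17.6 and 14.6 FPKM (0.66, SE 0.21, adjusted p = 0.0406), and NOL9, a polynucleotide kinase that acts on the spacer between 5.8S and 28S rRNA, had 5.54, 5.34 and 6.09 FPKM, against 3.61, 3.69 and 3.81 FPKM (0.50, SE 0.14, adjusted p = 0.0267). All 3 were higher in every FOXK2 library. NOC3L was apart as well, with FOXK2 values from 23.5 to 27.4 FPKM and vector values from 9.18 to 21.0 FPKM, and missed the threshold (0.70, SE 0.27, adjusted p = 0.0771).

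NOP53 and NOC2L were the 60S factors called lower. NOP53, which in yeast brings the exosome to the precursor, had 70.5, 70.5 and 52.5 FPKM in FOXK2 cells, against 124, 124 and 147 FPKM in vector cells (log2 fold change -1.03, SE 0.15, limma adjusted p = 0.00315). NOC2L, also known as an inhibitor of histone acetyltransferases, had 45.9, 75.4 and 57.5 FPKM, against 83.2, 80.3 and 103 FPKM (-0.59, SE 0.19, adjusted p = 0.0481). Both were lower in every FOXK2 library. PES1 and WDR12, which with BOP1 form the PeBoW complex, were not called: PES1 had 112, 157 and 126 FPKM in FOXK2 cells and 170.1, 162 and 157 FPKM in vector cells (-0.32, adjusted p = 0.113), and WDR12 had 7.06, 5.38 and 6.53 FPKM in FOXK2 cells and 6.08, 5.21 and 4.83 FPKM in vector cells (0.20, adjusted p = 0.350). The rRNA methyltransferases NOP2 and RRP8 were not called either, with means of 46.3 and 7.40 FPKM in FOXK2 cells and 52.3 and 7.87 FPKM in vector cells (-0.17, adjusted p = 0.379, and -0.07, adjusted p = 0.768).

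Symbols beginning with NOL also bring in 2 genes with other roles. NOL3 encodes ARC, a repressor of apoptosis, and had the largest change of the 62. Its level was 1.65, 3.05 and 3.38 FPKM in FOXK2 cells, against 10.5, 12.8 and 11.3 FPKM in vector cells (log2 fold change -1.79, SE 0.22, limma adjusted p = 0.00147). It was lower in every FOXK2 library, was called in each of the 17 other fits, and kept a log2 fold change of -1.08 with the GC and length correction (adjusted p = 0.00402). NOL4L was not called (-0.19, adjusted p = 0.324). Without NOL3 the genes called lower are 4 factors of ribosome assembly.

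**Figure D3:**
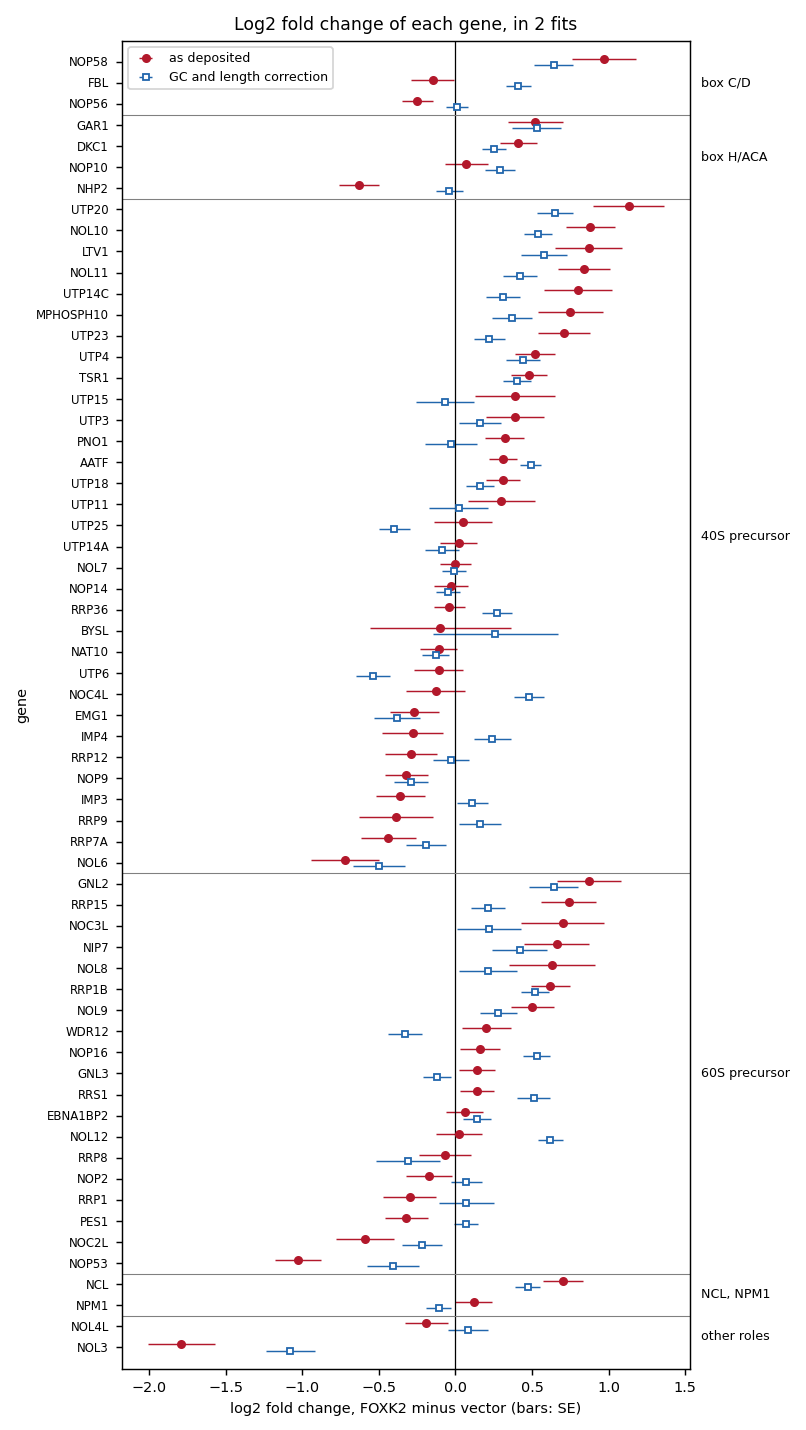
Log2 fold change of each gene, FOXK2 minus vector on the log2(FPKM + 1) scale, with its SE, as deposited (filled circles) and after GC and length correction (open squares), grouped by role. UTP20 is the highest and NOL3 the lowest in the uncorrected fit; the open squares lie nearer to 0 for most genes at either end, and lie on the other side of 0 from the circles for 20 of the 62.

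The direction of change among the 62 genes followed the GC content of their transcripts. Across the 62 genes, which share 6 libraries and are not independent, Spearman's correlation of log2 fold change with GC content was -0.80, against -0.59 across all 10302 genes; with transcript length it was 0.23 and 0.34. The 18 genes called higher have GC contents of 35.2% to 53.3% and the 5 called lower 57.2% to 66.0%, so these ranges do not meet. Of the 21 genes under 45% GC, 10 were called higher and none lower, where 33.1% of all genes in that class were called higher and 3.42% lower. Of the 20 genes at 55% GC or more, 5 (25%) were called lower and none higher, where the shares of all genes were 38.2% and 3.96%. Between 45% and 55%, 8 of 21 (38.1%) were called higher and none lower, against 15.5% and 15% of all genes in that class.

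**Figure D4:**
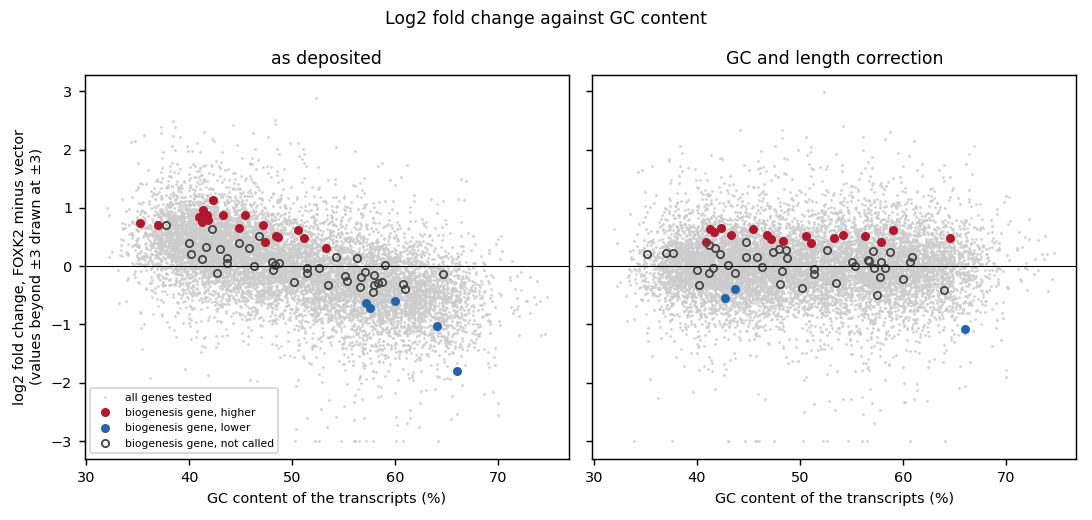
Log2 fold change (FOXK2 minus vector) against GC content of the transcripts in percent, for all genes tested (grey) and the 62 biogenesis genes (red called higher, blue called lower, open not called), as deposited on the left and with the GC and length correction on the right. On the left the called genes run from red below 54% GC to blue above 57%; on the right red points lie between 40.9% and 64.6% GC.

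With the GC and length correction 17 of the 62 genes were called higher (27.4%, against 15.9% of all genes) and 3 lower (4.84%, against 14.3%), which is 32.3% in all, against 30.2% of all genes, and their median log2 fold change was 0.16, against 0.01 for all genes. Of the 18 genes called higher without the correction, 11 stayed called higher: NOP58, NCL, UTP20, NOL10, NOL11, LTV1, UTP4, TSR1, AATF, GNL2 and RRP1B. The other 7 (DKC1, MPHOSPH10, UTP14C, UTP23, RRP15, NIP7 and NOL9) kept their direction without a call, with log2 fold changes of 0.21 to 0.42. Of the 5 called lower, NOL3 alone stayed called, and NOP53 (-0.41, adjusted p = 0.118), NOL6 (-0.50, adjusted p = 0.0723), NOC2L (-0.22, adjusted p = 0.249) and NHP2 did not. A further 6 were called higher in the corrected fit only: FBL, GAR1, NOL12 (0.62, adjusted p = 0.00222), NOP16 (0.53, adjusted p = 0.00767), RRS1 (0.51, adjusted p = 0.0164) and NOC4L (0.48, adjusted p = 0.0125). UTP6 (-0.54, adjusted p = 0.0132) and UTP25 (-0.40, adjusted p = 0.0287) were called lower in it only. No gene was called in opposite directions by the 2 fits. Whether the trend with GC content arose in the cells or in the libraries was not tested.

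Fewer calls were made when a library other than FOXK2 replicate 2 was left out. Of the 23 called genes, 9 were called with each library left out in turn: NCL, NOL10, NOL11, NOP58, RRP1B, UTP20, NOL3, NHP2 and NOP53. The first 7 of these were also called in each of the other fits tried; of the 7, UTP20 and NOL3 also had a log2 fold change of at least 1 in size. The counts called higher and lower were 8 and 3 without FOXK2 replicate 1, 21 and 12 without FOXK2 replicate 2, and 6 and 3 without FOXK2 replicate 3. Without vector replicates 1, 2 and 3 they were 13 and 3, 9 and 3, and 8 and 3. The numbers called over all genes tested also shifted with the library left out (ranges given below). These counts are therefore not a result about the biogenesis genes alone. Each of these fits set 3 libraries against 2, and the share of biogenesis genes called was not compared with that of all genes fit by fit. AATF, DKC1, MPHOSPH10, NOL9, TSR1, NOC2L and NOL6 were called without FOXK2 replicate 2 but not without any 1 of the other 5 libraries (adjusted p = 0.0536 to 0.148). LTV1, NIP7 and UTP14C lost the call without FOXK2 replicate 1 or 3 or vector replicate 2 or 3 (adjusted p = 0.0551 to 0.122), and RRP15 and UTP23 without FOXK2 replicate 1 or 3 or vector replicate 3 (adjusted p = 0.0531 to 0.0696). UTP4 lost it without FOXK2 replicate 3 or vector replicate 1 or 2 (adjusted p = 0.0594 to 0.0776), and GNL2 without FOXK2 replicate 3 or vector replicate 3 (adjusted p = 0.0606 and 0.0609). None of these 23 changed direction in any of the 6 fits. Without FOXK2 replicate 2, 10 further genes were called: BYSL, IMP3, NOP9, PES1, RRP12, RRP7A and RRP9 lower and GAR1, NOL8 and UTP3 higher. NOC3L was called higher without vector replicate 1, and GAR1 without vector replicate 3.

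The 62 genes have 163 listed transcripts, of which 130 reached a mean of 1 FPKM and were tested as deposited. Of these, 4 were called higher and 4 lower (6.15% in all, against 7.39% of all 21273 transcripts tested, 3.03% higher and 4.36% lower), and no gene had transcripts called in opposite directions. The main transcripts of NCL (ENST00000322723, log2 fold change 0.70, limma adjusted p = 0.0289), NOL10 (ENST00000381685, 0.86, adjusted p = 0.0353) and RRP1B (ENST00000340648, 0.62, adjusted p = 0.0454) were called higher, and that of NOP53 (ENST00000246802, -1.02, adjusted p = 0.0244) lower. DKC1 had a minor transcript, ENST00000437719, at 2.64, 4.51 and 2.82 FPKM in FOXK2 cells, against 0.447, 0 and 0.338 FPKM in vector cells (1.77, adjusted p = 0.0238). It made up 5.49% of the DKC1 sum in FOXK2 cells and 0.577% in vector cells. A minor transcript of FBL, ENST00000599134, was lower, at 1.48, 1.76 and 1.99 FPKM in FOXK2 cells, against 3.96, 3.71 and 3.77 FPKM (-0.81, adjusted p = 0.0421). Of the 4 listed transcripts of NOL3, 2 reached the mean for testing, and both were called lower. RRP12 shows how unevenly the transcript levels were split between libraries. ENST00000370992 had 22.4, 34.0 and 6.64 FPKM in FOXK2 replicates 1, 2 and 3, against 1.23, 28.7 and 2.06 FPKM in the vector replicates, while the RRP12 sum ran only from 23.6 to 35.2 FPKM in FOXK2 cells and 32.6 to 35.8 FPKM in vector cells.

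Promoters were read for the motif of forkhead factors, because FOXK2 is one, and for the E-box CACGTG, the site of MYC and related factors that are known to drive ribosome biogenesis genes. RefSeq promoters (build GRCh38.p14) were matched by symbol for 55 of the 62 genes, and the 250 bases before each gene start were searched on both strands. GTAAACA or ATAAACA, 2 forms of the forkhead motif, were found in 4 of 55 (7.27%), against 3.21% of 8295 tested genes and 6.61% of all 27305 promoters of that length. They were those of NOP14, PNO1, RRP15 and UTP14C, of which RRP15 and UTP14C were called higher. CACGTG was found in 11 of 55 (20%), against 9.34% of tested genes and 6.49% of all promoters, in 3 of the 13 matched genes called higher and in none of the 5 called lower. CCGGAAG, a motif of ETS factors, was found in 17 of 55 (30.9%), against 17.9% of tested genes and 8.82% of all promoters. In these 55 promoters different motifs share no bases, while 2 matches of CCGGAAG on opposite strands overlap in NOP16. Shown are the promoters of the genes called higher that hold a forkhead motif, and the last 100 bases before the start of those called genes with CACGTG within 20 bases of it. Capitals mark the motifs, the forkhead motif of UTP14C lying on the other strand, and UTP4 also holds CCGGAAG on the other strand. Coordinates of the windows, all on the plus strand, are chr1:218285043-218285292 for RRP15, chr13:52024441-52024690 for UTP14C, chr12:101280005-101280104 for UTP20 and chr16:69132549-69132648 for UTP4.
RRP15: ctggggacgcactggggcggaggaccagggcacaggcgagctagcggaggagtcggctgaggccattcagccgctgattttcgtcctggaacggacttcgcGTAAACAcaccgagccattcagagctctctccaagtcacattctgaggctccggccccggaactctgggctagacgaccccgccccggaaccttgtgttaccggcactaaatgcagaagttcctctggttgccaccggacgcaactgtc
UTP14C: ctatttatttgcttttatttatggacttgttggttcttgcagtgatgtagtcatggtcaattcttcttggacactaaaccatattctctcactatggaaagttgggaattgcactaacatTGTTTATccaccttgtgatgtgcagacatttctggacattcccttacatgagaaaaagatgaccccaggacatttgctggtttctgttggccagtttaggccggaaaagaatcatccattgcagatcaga
UTP20: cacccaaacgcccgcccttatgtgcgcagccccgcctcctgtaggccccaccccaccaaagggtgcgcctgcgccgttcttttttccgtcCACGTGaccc
UTP4: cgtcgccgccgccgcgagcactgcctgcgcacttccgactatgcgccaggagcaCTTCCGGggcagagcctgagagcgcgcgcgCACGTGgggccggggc

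The rest of the pathway, in lists that hold none of the 62 genes, also moved both ways. Of 105 further biogenesis genes, 30 were called higher (28.6%, against 17.6% of all genes) and 9 lower (8.57%, against 18.7%). That is 37.1% in all, against 36.3% of all genes. Their median log2 fold change was 0.17. With the GC and length correction 20 were called higher (19%, against 15.9% of all genes) and 7 lower (6.67%, against 14.3%). That is 25.7% in all, against 30.2% of all genes, with a median of 0.10. RNA polymerase I subunits and factors had 4 of 17 higher and 1 lower (29.4% in all), and 4 and 0 with the correction (23.5%). The polymerase subunit genes TWISTNB and CD3EAP averaged 14.0 ± 3.09 and 38.1 ± 3.99 FPKM in FOXK2 cells, against 5.48 ± 0.734 and 22.6 ± 5.82 FPKM in vector cells (SD, n = 3 each; log2 fold changes 1.20 and 0.75, limma adjusted p = 0.00426 and 0.0235). ZNRD1, another subunit gene, was lower (-0.65, adjusted p = 0.0496). Of 15 nucleolar DEAD and DEAH helicases, 4 were higher, DDX21 (0.91, adjusted p = 0.00930) and DDX10 (0.80, adjusted p = 0.0217) by most, and DDX54 was lower (-0.43, adjusted p = 0.0445). These make 33.3% of the helicases, and with the correction 3 were higher and 1 lower (26.7% in all).

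Among 26 other small subunit factors, 8 were called higher and 2 lower (38.5% in all, against 36.3% of all genes). With the correction 5 were higher and 1 lower (23.1% in all, against 30.2% of all genes). WDR36 and the kinase RIOK1 had log2 fold changes of 0.98 and 0.97 (limma adjusted p = 0.00571 and 0.00409), and TBL3 averaged 7.26 ± 2.50 FPKM in FOXK2 cells, against 18.6 ± 1.76 FPKM in vector cells (SD, n = 3 each; -1.29, adjusted p = 0.00600). TSR3, which modifies 18S rRNA, was lower by less (-0.54, adjusted p = 0.0442). Among 32 other large subunit factors, 8 were higher and 4 lower (37.5% in all), and 3 and 4 with the correction (21.9%). BRIX1 (0.91, adjusted p = 0.0179) and CEBPZ (0.77, adjusted p = 0.0466) rose by most, and WDR18 (-0.75, adjusted p = 0.0472) and EIF6, which keeps immature large subunits from joining small ones (-0.64, adjusted p = 0.0364), fell by most. The last list holds 15 genes: the RNA exosome, the nuclease that trims rRNA precursors, its cofactors, and the separate exonuclease XRN2. Of these, 6 were higher and 1 lower (46.7% in all). With the correction 5 were higher and 1 lower (40% in all), the lower 1 being XRN2 (-0.33, adjusted p = 0.0192). MTREX, the helicase that feeds the exosome, averaged 21.8 ± 4.56 FPKM in FOXK2 cells, against 7.28 ± 1.25 FPKM in vector cells (SD, n = 3 each; 1.45, adjusted p = 0.00215), and stayed called higher with the correction (0.96, adjusted p = 0.0144). The core subunit EXOSC8 averaged 26.6 ± 3.18 FPKM, against 10.4 ± 3.63 FPKM (1.33, adjusted p = 0.00765), and EXOSC5 was lower (-0.74, adjusted p = 0.0284). With the correction EXOSC5 was not called (-0.09, adjusted p = 0.539), nor were ZNRD1, DDX54, WDR18, EIF6, CEBPZ (0.30, adjusted p = 0.164) and TSR3, whose log2 fold change turned to 0.17. TBL3 was still called lower (-0.89, adjusted p = 0.00902).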

How the data were processed

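Total RNA of 6 samples was sequenced with a stranded, random-primed kit, per the labels' protocols. Per the submitters' processing notes the tools were cutadapt, HISAT2 2.1.0 and StringTie on hg19; neither their settings nor any use of strand when reads were assigned is stated. The authors deposited 1 table of 31009 transcripts. Its values were taken as FPKM, since the header of the deposited table names no unit. It holds no read counts, so the depth is unknown and no counting interval is given.

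GENCODE 29 gave names, GC content and length, weighted by level (30893 transcripts matched, 116 with 0.211% of the signal did not), and its coordinates, on another build, were not printed. Testing took genes whose mean reached 1 FPKM, on log2(FPKM + 1) with limma 3.58.1 in R 4.3.3 (group term, intensity trend, two-sided, Benjamini-Hochberg adjusted p under 0.05), and transcripts likewise. The correction subtracted, per library, a spline fit (natural, 4 degrees of freedom each) of the deviations against GC content and against log length. The code was tested on simulated data.

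Genes, lists, tests and alternatives were chosen with earlier results of these data known. Full values follow a rule: up to 5 called genes of smallest p per role and direction, FBL, NCL, NPM1, DKC1 and genes whose call or direction the correction changes; from each further list the 2 largest called rises and falls. Some genes that the rule takes are given by fold change only, and others were added after their values were seen. Exons of 14 of the 62 genes overlap another listed gene in GENCODE 29, UTP14C on the same strand and the other 13 on the opposite one, so their values are uncertain: EMG1, GNL2, GNL3, IMP3, IMP4, NHP2, NIP7, NOL8, NOP16, PES1, TSR1, UTP23 and UTP4.

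Alternatives were pseudocounts of 0.1 and 0.5, no filter, a mean of 5 FPKM or more, median ratio scaling, quantile normalization, the correction, no intensity trend, the replicate number as a block with and without the correction, the most abundant transcript of each gene, each library left out, and calls that also needed a log2 fold change of 1 or more in size.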

Additional observations from a re-analysis of the deposited data

How the results depend on the processing

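Counts of the 62 genes called higher or lower (18 and 5 as reported) stayed within 1.5 times under both other pseudocounts, no filter, a minimum mean of 5 FPKM, both scalings and no intensity trend. The correction, the correction with the replicate block and the most abundant transcript gave 3, 2 and 2 lower. With a log2 fold change of at least 1, 1 was higher and 2 lower. With each library left out, 6 to 21 were higher and 3 to 12 lower. The median log2 fold change of the 62 was 0.07 at a minimum mean of 5 FPKM, 0.17 with quantile normalization, 0.16 with the correction and with the correction and the block, and 0.15 with the most abundant transcript, and 0.09 to 0.13 with each library left out. Over all genes tested, the genes called higher (1812 as reported) numbered 1140 with the correction and the block, 960 with the most abundant transcript, 458 with a log2 fold change of at least 1 and 845 to 2370 with a library left out, and the genes called lower (1929 as reported) 984, 1183, 582 and 1105 to 2408. The causes were not tested. The replicate block alone gave 14 higher and 4 lower of the 62; AATF, DKC1, NOC2L, NOL9 and TSR1 lost the call. The labels do not say whether same-numbered libraries were prepared together. Their deviations from the group means correlated at 0.126, -0.168 and -0.056. No FOXK2 replicate correlated best with the vector replicate of its own number, though vector replicate 1 correlated best with FOXK2 replicate 1. Deviations from a group mean depend on each other, so these correlations cannot decide whether libraries were paired.

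Log2 fold changes of 20 genes changed sign with the correction, with and without the block: BYSL 0.26, FBL 0.41, GNL3 -0.12, IMP3 0.11, IMP4 0.24, NOC4L 0.48, NOL4L 0.08, NOL7 -0.01, NOP2 0.07, NOP56 0.01, NPM1 -0.11, PES1 0.07, PNO1 -0.03, RRP1 0.07, RRP36 0.27, RRP9 0.16, UTP14A -0.09, UTP15 -0.07, UTP25 -0.40 and WDR12 -0.33. None of these was called without it. Sign changes also came under median ratio scaling (NOL7 -0.01), quantile normalization (NOP14 0.01, RRP36 0.09) and the most abundant transcript (NOP2 0.80, RRP12 1.65). With a library left out, uncalled genes near 0 took both signs: BYSL -0.68 to 0.35, EBNA1BP2 -0.03 to 0.11, NOC4L -0.32 to 0.05, NOL12 -0.08 to 0.14, NOL7 -0.06 to 0.04, NOP10 -0.03 to 0.16, NOP14 -0.07 to 0.01, RRP8 -0.18 to 0.06, UTP14A -0.03 to 0.10, UTP25 -0.07 to 0.17 and UTP6 -0.20 to 0.05.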
